A study of Mus musculus with 26 samples.

Results

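The 6 libraries compared here held RNA of TCRTg101 cells taken from mouse spleen, 3 from leukemia-bearing mice and 3 from mice without leukemia. They were chosen by their labels from the 15 libraries of the series, as the spleen libraries of leukemia-bearing mice other than one of undivided cells, set against the low-input spleen libraries of naive and untreated controls. Each had been sequenced in 2 runs, which gave 12 of the 26 samples. TCRTg101 are CD8+ T cells whose receptor was cloned from a T cell that recognizes an undefined antigen of C1498, a leukemia line of C57BL/6 mice. The receptor genes (V alpha 10, TRAV13, and V beta 1, TRBV5) were expressed from TCR alpha and beta cassettes, and the study crossed the line to Rag2-/- mice, in which no other receptor is rearranged. The labels give strain C57BL/6, genotype wild type and an age of 6 weeks for all 6 libraries.

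The control libraries were 2 of naive Tg101 cells at day 0 (replicates 1 and 2) and 1 of Tg101 cells from untreated mice at day 18. The leukemia libraries were 2 at day 7 (replicates 1 and 2) and 1 at day 14. In the study's methods, labelled cells were transferred into hosts and C1498 cells were injected intravenously 1 day later. Days were counted from transfer, so the day 0 cells had spent no time in a host, and the day 18 control cells were from hosts without leukemia. Cells were recovered by flow cytometry sorting, and whether a library pooled several mice is not stated. Nothing in the labels says which libraries came from separate mice, so the p-values measure only the spread between these libraries, which may in part be technical.

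A naive CD8+ T cell circulates through spleen and lymph nodes in a resting state, guided by receptors such as CCR7 and kept alive by interleukin-7. When its receptor binds antigen it enters the cell cycle, copies its DNA, switches on effector genes such as granzymes and interferon gamma, and lowers its lymphoid homing genes. The receptor signal also induces inhibitory receptors such as PD-1. When antigen persists, these stay high and the state is called dysfunction or exhaustion. The spleen comparison asks how much of that program was present in an organ that the leukemia line reaches through the blood, with the tissue kept the same in both arms.

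CD8 T cell transcripts were present at high levels throughout. *Cd8a*, a chain of the CD8 co-receptor, was at 897 and 773 CPM in the day 0 controls, 838 in the day 18 control, 719 and 681 in the day 7 libraries and 691 in the day 14 library. *Trbv5*, the transgenic V beta segment, was at 10899 and 8406 CPM in the day 0 controls, 6903 in the day 18 control, 6022 and 6098 in the day 7 libraries and 5348 in the day 14 library. CPM, the unit used here, are counts relative to library size, scaled by TMM. *Cd4* did not exceed 5.56 CPM. Total estimated counts ranged from 28054840 to 65021068 in the controls and from 22691066 to 34900728 in the leukemia libraries. The shallowest library, day 7 replicate 2, had the most genes with at least 10 counts (19991, against 14785 to 17100 in the other 5). The 1973 olfactory and vomeronasal receptor genes, which are characteristic of sensory neurons and were chosen after their values were seen, summed to 7062 CPM in that library and to 1122 to 1701 CPM in the other 5. The Y-linked gene *Ddx3y* was at 0.143 CPM in the day 18 control and 0.696 in day 7 replicate 2, against 30.5 to 101 in the other 4, so that each arm held 1 library nearly without Y-linked RNA. The titles of day 0 replicate 1 carry the letters TG and those of the other 5 XC. This series was taken as nearest to the sequencing batch, since the study used 2 batches and the labels do not name them.

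Most of the signs of other cells were in the day 0 controls. The 11 macrophage and monocyte markers summed to 1630.0 and 233 CPM in the day 0 controls, 21.5 in the day 18 control, 9.55 and 130.1 in the day 7 libraries and 79.2 in the day 14 library. Complement *C1qb*, a macrophage product, was at 359, 33.9 and 1.32 CPM in the controls, 0.304 and 16.8 at day 7 and 11.3 at day 14. The 10 dendritic cell markers, which include MHC class II genes, summed to 2116 and 2067 CPM in the day 0 controls, 47.3 in the day 18 control, 29.1 and 126 in the day 7 libraries and 82.2 in the day 14 library. In the 10 erythroid and platelet markers the gap was widest, with 5448 and 22329 CPM in the day 0 controls, 152 in the day 18 control, 3.53 and 29.8 in the day 7 libraries and 23.3 in the day 14 library. For these 3 lists, and for the 9 neutrophil markers (282 and 60.7 CPM in the day 0 controls, 17.4 in the day 18 control, 3.10 and 17.0 in the day 7 libraries and 4.90 in the day 14 library), both day 0 controls were above the other 4 libraries. *Lyz2*, *C1qa* and *Cd74* were above 0 in all 6 libraries, whereas the neutrophil genes *S100a8*, *S100a9* and *Ltf* were at 0 in day 7 replicate 1. Summed NK cell markers were at 297 and 35.1 CPM in the day 0 controls and 1.65 to 12.2 in the other libraries. Of these markers, *Ncr1* and *Klra8* were at 0 in the day 18 control and at day 14. B cell markers summed to 599 to 748 CPM in all 6, nearly all of it *Ighm* (547 to 702 CPM), so the sum hides the other members. Of the 7 that were tested, 5 were above all controls in day 7 replicate 2 (32.7% of all tested genes) and 2 below (22.3%). In day 7 replicate 1 these counts were 2 (21.4%) and 2 (22.6%). CD4 T cell markers summed to 2.22 to 8.03 CPM. The day 18 control resembled the leukemia libraries in these lists, and it is therefore given apart below.

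**Figure D1:**
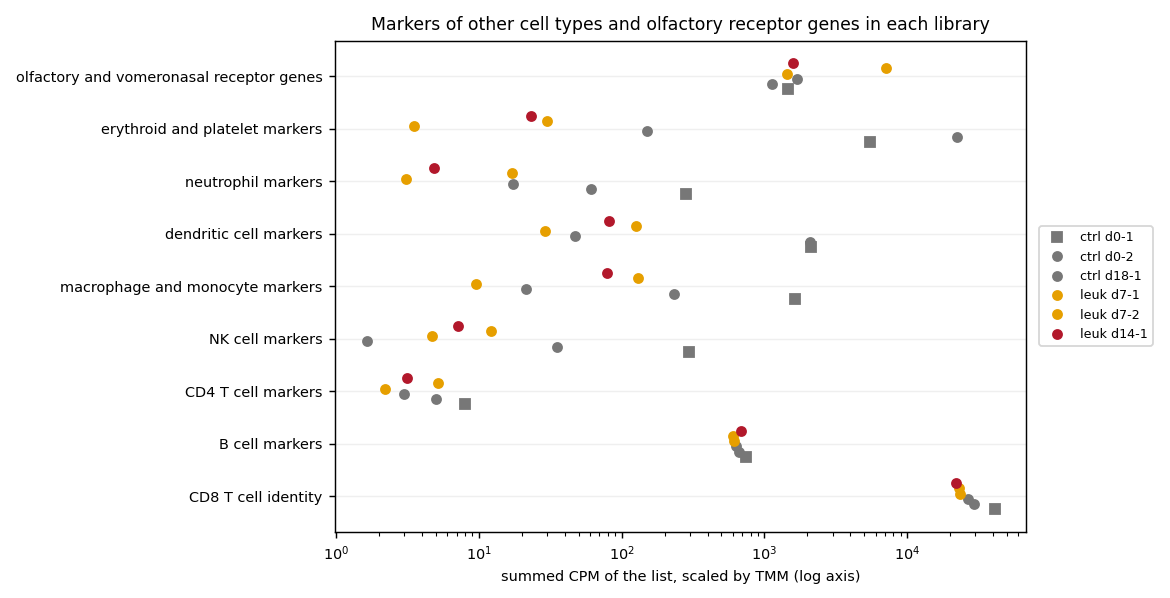
Summed CPM (scaled by TMM, log axis) of marker lists of CD8 T cells and other cell types, and of olfactory and vomeronasal receptor genes, with 1 point per library (grey: control; orange: leukemia day 7; red: leukemia day 14; square: TG series; circle: XC series). The day 0 controls lie to the right for dendritic cell markers, at 2116 and 2067 CPM against 29.1 to 126 in the others, and day 7 replicate 2 stands apart for olfactory and vomeronasal receptor genes, at 7062 CPM.

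Of 16014 genes with 10 counts or more in 3 or more libraries, none passed an adjusted p of 0.05 in any of the 4 comparisons (0 genes, 0.0% in each direction), by the quasi-likelihood test of edgeR and Benjamini-Hochberg adjustment over all genes. Between all leukemia and all control libraries (3 against 3) the smallest adjusted p was 0.652, with 616 genes higher and 415 lower at an unadjusted p under 0.05. It was 0.826 for day 7 versus control (669 higher and 121 lower), 0.131 for day 14 versus control (597 and 373) and 0.919 for day 14 versus day 7 (386 and 169). DESeq2's Wald test in the same designs called 39 genes for leukemia versus control (0.137% of genes higher, 0.106% lower) and 11 for day 7 versus control (0.0312% and 0.0375%). It called 264 for day 14 versus control and 72 for day 14 versus day 7 (0.393% and 0.0562%). In the fit with day 7 and day 14 apart, the single day 14 library was assumed to vary like the other groups.

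The day 14 comparison depended on the count filter and on which controls were used. With all 6 libraries and no filter beyond 6 counts in total, edgeR called 135 of 26716 genes at day 14 (130 higher, 0.487%, and 5 lower, 0.0187%), 6 for day 7 versus control, 32 for day 14 versus day 7 and 0 for leukemia versus control. The libraries and comparisons are those of the filtered fit. Genes that fail the filter also enter the estimate of spread there, so a pass without the filter is not separate evidence. With the filter kept and day 0 replicate 1 left out, so that all libraries were of the XC series, edgeR called 117 genes at day 14, of which 100 (0.654% of 15299 tested) were higher and 17 (0.111%) lower, with a smallest adjusted p of 0.000134. The 264 genes of DESeq2, with all controls, were 205 higher (1.28% of 16014) and 59 lower (0.368%), and 93 genes were in both sets (79.5% of the 117 and 35.2% of the 264). The 2 sets share all their leukemia libraries and 2 controls. With the series as a term in the edgeR fit of all 6 libraries, 1 gene, *Pclaf*, passed.

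The leukemia libraries did not form 1 group. Euclidean distances in log2 CPM over all tested genes averaged 130.5 within the controls, 136.0 within the leukemia libraries and 141.7 between the arms. With the series effect removed they were 81.4, 136.0 and 126.4. The only TG library is a control, so the removal places it midway between the 2 XC controls. The shorter distances among the controls and between the arms follow from that step and do not measure a series effect. All leukemia libraries are XC, so the distance within them could not change. The shortest distance of all, 89.4, was between the day 18 control and day 7 replicate 1, followed by 96.9 between day 7 replicate 1 and day 14. The 2 day 7 libraries lay 161.9 apart, farther than any 2 controls. On the first principal component (38.8% of variance) the day 0 controls were at -72.7 and -64.3, day 7 replicate 2 was at 96.5, and the day 18 control, day 7 replicate 1 and day 14 were between 12.1 and 14.8. The third component (13.4%) placed day 14 at -62.1 and the other libraries between -15.2 and 41.2.

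**Figure D2:**
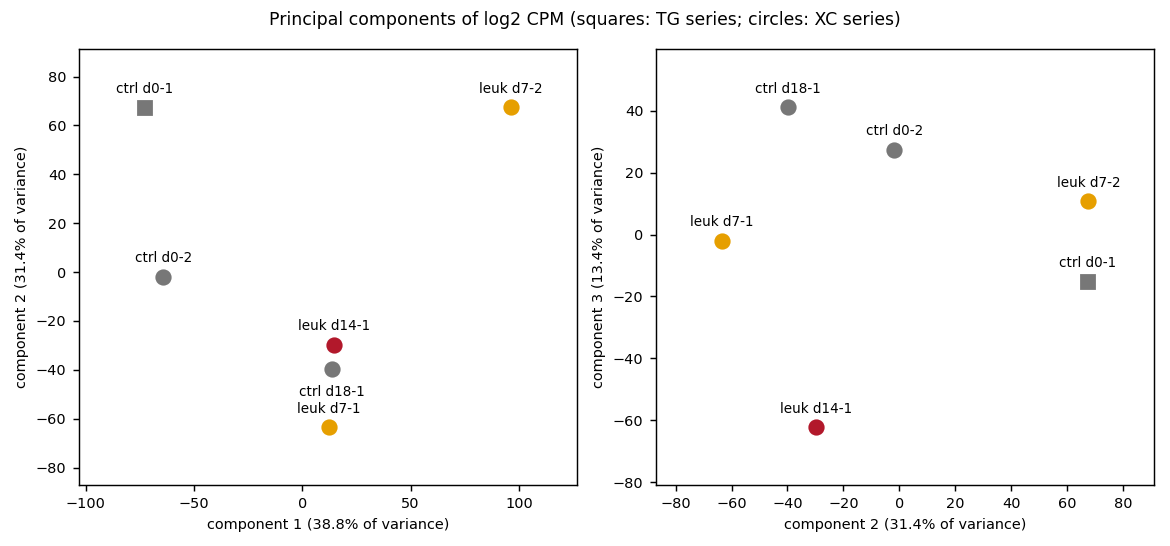
Principal components 1 to 3 of log2 CPM (prior count 2) of the 16014 tested genes, with 1 point per library and the share of variance on each axis (grey: control; orange: leukemia day 7; red: leukemia day 14; square: TG series; circle: XC series). The day 0 controls and day 7 replicate 2 occupy the ends of component 1, and day 14 is lowest on component 3, at -62.1.

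Genes of DNA replication and mitosis were high at day 14. All 16 mitosis genes and 16 of 18 DNA replication genes were above each of the other 5 libraries at day 14, where 15.6% of all tested genes were. Against the controls alone, day 14 was higher for 16 and 16 members (26.0% of all tested genes). The median log2 fold change, day 14 versus control, was 3.05 for the mitosis list and 1.54 for the DNA replication list, beside -0.03 for all tested genes. With all 6 libraries no member passed edgeR's test under the count filter, and without the filter 6 of each list did, all of them higher. DESeq2 called 9 of the 16 and 12 of the 18, and edgeR within the XC series called 5 and 6, all of them higher. The share of cells in cycle and the amount of RNA per cycling cell cannot be told apart in bulk RNA.

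*Mki67*, the Ki-67 antigen of cycling cells (ENSMUSG00000031004.8, GRCm38 chromosome 7, 135689784 to 135716361), was at 13.7 and 4.31 CPM in the day 0 controls, 1.14 in the day 18 control, 10.2 and 3.60 in the day 7 libraries and 72.7 in the day 14 library. Day 14 was the highest and the day 18 control the lowest, and day 7 replicate 1 lay within the range of the controls. The log2 fold change of *Mki67* at day 14 was 3.49 (SE 1.16), with an adjusted p of 0.716 by edgeR. *Top2a*, the topoisomerase that untangles sister chromatids, was at 14.2 and 11.0 CPM in the day 0 controls, 5.04 in the day 18 control, 15.8 and 6.02 in the day 7 libraries and 89.2 in the day 14 library, and its adjusted p was 0.264 by edgeR and 0.00139 by DESeq2. *Kif11*, a motor of the bipolar spindle, was at 1.84 and 2.19 CPM in the day 0 controls and 0.787 in the day 18 control. It was at 3.53 and 1.92 CPM in the day 7 libraries and 20.7 in the day 14 library. By edgeR with all 6 libraries and the count filter it did not pass. Within the XC series its log2 fold change was 3.79 (SE 0.67, adjusted p = 0.0256) by edgeR, and with all 6 libraries and no filter its adjusted p was 8.7e-05. *Cdk1*, the kinase that starts mitosis, and its partner *Ccnb1* (cyclin B1) were at 18.5 and 22.2 CPM at day 14, against 1.60 to 5.10 and 1.61 to 6.97 in the other libraries. *Birc5* (survivin) and *Cenpe*, a kinetochore motor, were at 50.1 and 21.1 CPM, against 2.75 to 11.3 and 2.43 to 5.90. In the summed list the controls themselves spread over more than the day 7 libraries did, with 118 and 70.1 CPM in the day 0 controls, 34.6 in the day 18 control, 106 and 45.1 in the day 7 libraries and 549 in the day 14 library.

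Among replication genes, *Mcm5*, a subunit of the MCM2-7 helicase (ENSMUSG00000005410.6, GRCm38 chromosome 8, 75109569 to 75128439), was at 61.4 and 67.1 CPM in the day 0 controls, 70.3 in the day 18 control, 109 and 62.0 in the day 7 libraries and 274 in the day 14 library. The 3 controls were close together, day 7 replicate 1 was above them and day 7 replicate 2 lay among them. Its log2 fold change at day 14 was 2.05 (SE 0.31), with an adjusted p of 0.182 by edgeR with all 6 libraries, 0.000534 without the count filter and 0.0264 by edgeR within the XC series. *Mcm6* was at 126, 184 and 158 CPM in the controls, 214 and 127 at day 7 and 437 at day 14. *Rrm1* and *Rrm2* encode the 2 subunits of ribonucleotide reductase, which makes the DNA precursors. *Rrm1* was at 52.9, 51.8 and 62.7 CPM in the controls, 71.1 and 76.3 at day 7 and 155 at day 14. It was the 1 member of the list for which each leukemia library exceeded each control (5.59% of all tested genes). *Rrm2*, the subunit that cycles with S phase, was at 9.74, 8.25 and 4.62 CPM in the controls, 14.7 and 2.58 at day 7 and 107 at day 14. *Cdc6*, which loads the helicase at origins, was at 3.61, 1.14 and 1.18 CPM in the controls, 4.53 and 1.06 at day 7 and 35.6 at day 14. In *Rrm2* and *Cdc6* day 7 replicate 2 was below every control while replicate 1 was above them. The 2 members that were not higher than all controls at day 14 were *Cdc45* (54.0, 21.1 and 36.4 CPM in the controls, 22.4 and 19.9 at day 7 and 42.3 at day 14) and the licensing factor *Cdt1* (68.2, 65.2 and 58.2 CPM in the controls, 70.4 and 45.5 at day 7 and 59.8 at day 14). The 69 replication-dependent histone genes, a family packaged onto new DNA and chosen after its values were seen, summed to 456 and 320.0 CPM in the day 0 controls, 273 in the day 18 control, 283 and 256 in the day 7 libraries and 700.5 in the day 14 library. Histone reads are divided among near-identical copies and most of these transcripts lack a poly(A) tail, so single histone genes and their sum are uncertain.

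Promoter sequence is shown for 4 of these genes, since the day 14 level was the highest in nearly all members of both lists. Such genes carry known cell cycle elements. The 4 were picked from members whose printed bases hold such elements, so finding them there was fixed by the choice. Mitosis genes are known for a CHR element (searched as TTTGAA) next to CCAAT boxes, and replication genes for E2F sites (searched as TTTCCCGC or TTTGGCGC), with both strands read. In the 250 bases before the start, from RefSeq's GRCm38.p6 annotation, a CHR was found in 7 of 14 mitosis genes that matched by symbol and in 18.3% of all 27025 genes. CCAAT was found in 13 of the 14, in 10 of 13 matched replication genes and in 37.5% of all genes. An E2F match was found in 4 of those 13, in 0 of the 14 mitosis genes and in 1.51% of all genes. The CHR was in 2 of the 13. Among the 11228 matched genes tested here the shares were 14.1% for the CHR, 40.4% for CCAAT and 2.63% for E2F. The letters below are the 120 bases that end just before the annotated start, 5′ to 3′ on the gene's strand, with CHR and CCAAT matches on either strand in capitals for the 3 mitosis genes and E2F matches for *Mcm6*. A match on the other strand reads TTCAAA for the CHR and ATTGG for the CCAAT box. None of the CHR and CCAAT matches shown share bases. The intervals are chr19:37376262-37376381, forward strand for *Kif11*, chr11:99024190-99024309, reverse strand for *Top2a*, chr10:69352913-69353032, reverse strand for *Cdk1* and chr1:128359706-128359825, reverse strand for *Mcm6*.
Kif11: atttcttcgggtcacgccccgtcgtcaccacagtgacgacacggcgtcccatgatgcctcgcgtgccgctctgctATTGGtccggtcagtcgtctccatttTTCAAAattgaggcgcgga
Top2a: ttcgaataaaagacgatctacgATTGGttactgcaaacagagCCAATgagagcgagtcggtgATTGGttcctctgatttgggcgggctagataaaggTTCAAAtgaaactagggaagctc
Cdk1: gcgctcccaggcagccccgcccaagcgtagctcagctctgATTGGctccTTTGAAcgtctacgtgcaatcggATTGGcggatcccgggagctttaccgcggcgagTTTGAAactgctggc
Mcm6: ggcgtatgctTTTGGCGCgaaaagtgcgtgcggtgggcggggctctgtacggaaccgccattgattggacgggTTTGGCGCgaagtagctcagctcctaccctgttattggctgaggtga
In the capitals the *Top2a* promoter holds several CCAAT boxes with a CHR nearer the start. In *Cdk1* the CCAAT and CHR matches alternate, and *Mcm6* holds 2 E2F matches. At day 14 these 4 genes were at 20.7, 89.2, 18.5 and 437 CPM, and the highest of the other 5 libraries was at 3.53, 15.8, 5.10 and 214 CPM. A match of letters is a description and was not tested for binding.

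**Figure D3:**
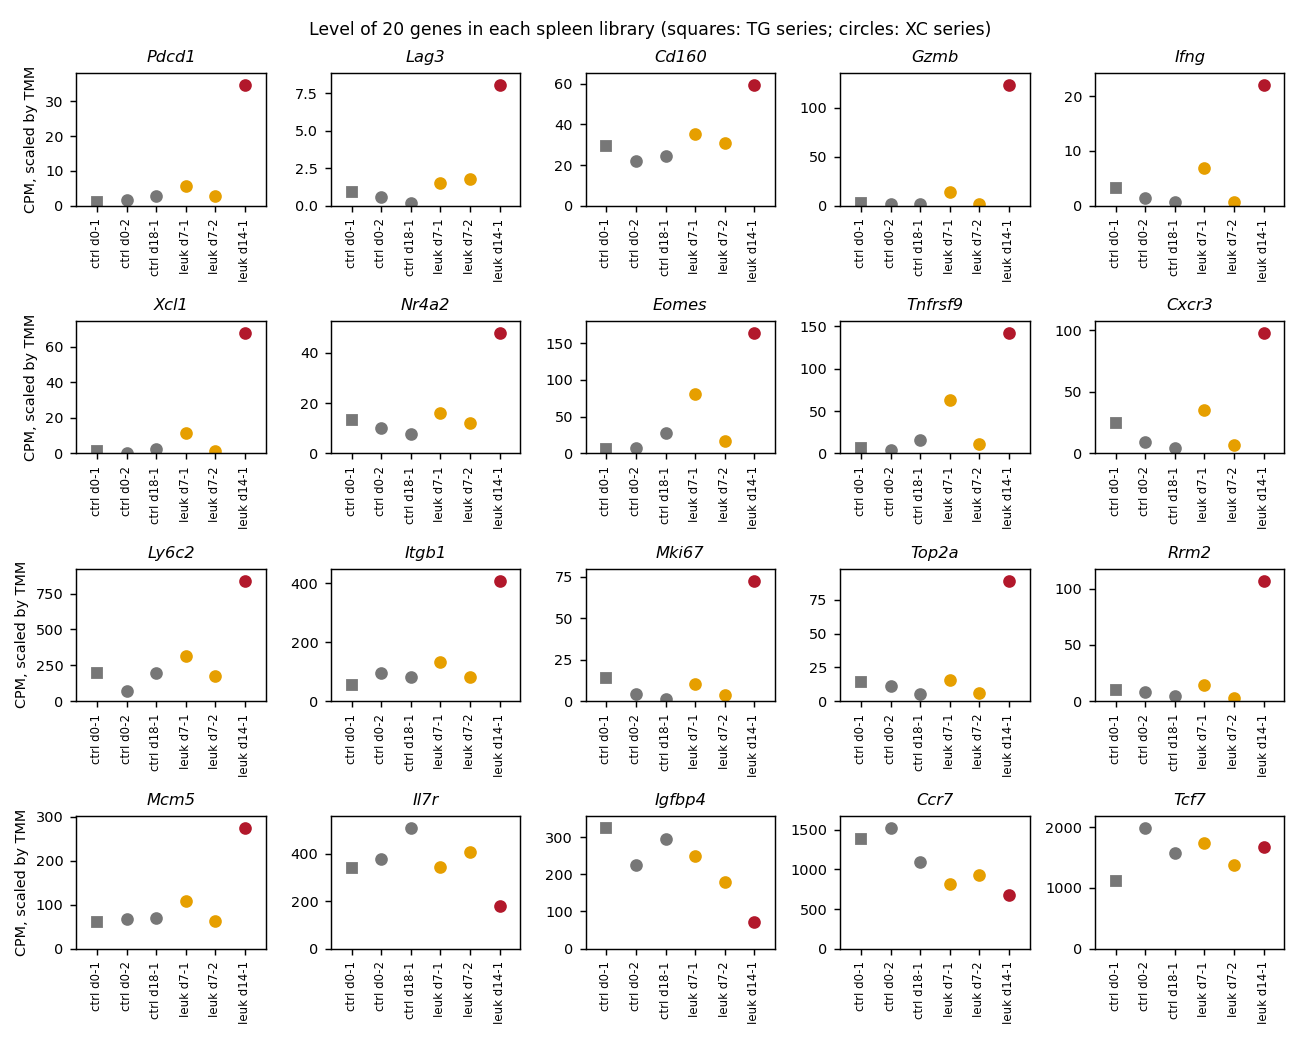
CPM (scaled by TMM, linear axes from 0) of 20 genes, with 1 point per library (grey: control; orange: leukemia day 7; red: leukemia day 14; square: TG series; circle: XC series). Day 14 is the highest point for the first 16 genes, day 7 replicate 1 is above replicate 2 for 15 of these 16, *Il7r*, *Igfbp4* and *Ccr7* are lowest at day 14, and *Tcf7* stays within the range of the controls.

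Of the 10 co-inhibitory receptor genes, 6 were higher at day 14 than in every other library (15.6% of all tested genes). None was lower than all controls at day 14 (24.4%), and the median log2 fold change was 0.88. No member passed by edgeR with all 6 libraries under the count filter. *Pdcd1*, which encodes PD-1 (ENSMUSG00000026285.7, GRCm38 chromosome 1, 94038305 to 94052553), was at 1.17 and 1.54 CPM in the day 0 controls, 2.68 in the day 18 control, 5.69 and 2.95 in the day 7 libraries and 34.6 in the day 14 library. Both day 7 libraries were above all controls, replicate 2 by little, and day 14 was far above the rest. *Pdcd1*, *Lag3* and *Cd160* were the 3 members for which each leukemia library exceeded each control (5.59% of all tested genes). The log2 fold change at day 14 was 4.28 (SE 0.55), with an adjusted p of 0.173 by edgeR with all 6 libraries, 7.38e-08 without the count filter, 0.00373 by edgeR within the XC series and 4.34e-08 by DESeq2. *Lag3*, a receptor that binds MHC class II, was at 0.918 and 0.600 CPM in the day 0 controls, 0.215 in the day 18 control, 1.52 and 1.76 in the day 7 libraries and 8.03 in the day 14 library, with a log2 fold change of 3.77 (SE 0.80). It passed by DESeq2 (adjusted p = 0.00414) and, by edgeR, without the count filter (adjusted p = 0.00635) but not with it (adjusted p = 0.264). *Cd160*, which naive CD8+ T cells also express, was at 29.4, 22.2 and 24.5 CPM in the controls, 35.4 and 30.9 at day 7 and 59.3 at day 14, and its adjusted p within the XC series was 0.0242 by edgeR.

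*Tigit* was at 3.44, 1.84 and 0.930 CPM in the controls, 1.89 and 3.15 at day 7 and 7.02 at day 14, and *Btla*, an inhibitory receptor of resting lymphocytes, was at 37.1, 37.5 and 45.9 CPM in the controls, 52.9 and 45.5 at day 7 and 58.5 at day 14. *Ctla4* was uneven in the controls and highest at day 14, at 29.6, 15.1 and 2.00 CPM in the controls, 12.1 and 4.09 at day 7 and 39.2 at day 14. *Cd200r1* differed little between libraries, at 3.84, 2.68 and 2.72 CPM in the controls, 2.83 and 3.89 at day 7 and 3.78 at day 14. The other 3 members were highest in a day 0 control. *Havcr2* (TIM-3) was at 6.85, 14.0 and 0.358 CPM in the controls, 0.274 and 2.50 at day 7 and 5.65 at day 14. *Entpd1* (CD39) was at 11.1, 5.93 and 0.823 CPM in the controls, 1.09 and 1.96 at day 7 and 2.21 at day 14. *Cd244a* was at 5.38, 4.16 and 0.894 CPM in the controls, 0.639 and 2.46 at day 7 and 2.12 at day 14. These 3 are also expressed by myeloid or NK cells, whose markers were highest in the same 2 libraries. The part of those cells in these values was not tested.

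The 15 cytolytic and effector genes included 9 that were highest of all libraries at day 14 (15.6% of all tested genes) and 10 that were above all controls (26.0%, median log2 fold change 0.89). None passed by edgeR with all 6 libraries, with or without the count filter. *Gzmb*, granzyme B (ENSMUSG00000015437.5, GRCm38 chromosome 14, 56258838 to 56262260), was at 3.28 and 2.27 CPM in the day 0 controls, 1.97 in the day 18 control, 13.9 and 1.84 in the day 7 libraries and 123 in the day 14 library. The 3 controls and day 7 replicate 2 were alike, day 7 replicate 1 was above them, and day 14 was the highest. At day 14 the log2 fold change was 5.60 (SE 0.92), with an adjusted p of 0.245 by edgeR and 2.43e-07 by DESeq2. Without day 7 replicate 2 it passed edgeR's test as 1 of 3 genes, with *Zbtb32* and *Uhrf1*. *Ifng*, interferon gamma, was at 3.19 and 1.33 CPM in the day 0 controls, 0.716 in the day 18 control, 6.87 and 0.655 in the day 7 libraries and 21.99 in the day 14 library. *Gzmk* was low, at 0, 0.0214 and 0.429 CPM in the controls, 2.62 and 0.409 at day 7 and 5.25 at day 14. *Gzma* was at 9.52, 8.46 and 0.537 CPM in the controls, 3.92 and 2.09 at day 7 and 21.3 at day 14, with the day 18 control far below the day 0 controls. These genes were all highest at day 14, with day 7 replicate 1 next for *Ifng* and *Gzmk*. *Serpinb9* and *Serpinb6b*, whose proteins inhibit serine proteases, were at 44.0 and 38.4 CPM at day 14, against 23.4 to 27.4 and 11.7 to 16.3 in the other libraries. *Serpinb6b* passed within the XC series by edgeR (adjusted p = 0.0264). *Gzmc*, although low at 0.0778, 0.0214 and 0.107 CPM in the controls, 0.395 and 0.450 at day 7 and 0.602 at day 14, and *Serpinb9* were the 2 members above every control in each leukemia library (5.59% of all tested genes). *Tnf* was at 8.90, 2.70 and 15.0 CPM in the controls, 12.1 and 10.6 at day 7 and 16.1 at day 14, and *Fasl*, the death ligand, at 2.23, 1.99 and 0.215 CPM in the controls, 5.17 and 0.655 at day 7 and 3.81 at day 14. *Nkg7*, a cytotoxic granule gene, was high in all 6, at 1001, 525 and 641 CPM in the controls, 648 and 497 at day 7 and 869.8 at day 14. *Prf1*, perforin, did not stand apart, at 51.1, 57.8 and 80.4 CPM in the controls, 78.2 and 71.5 at day 7 and 70.9 at day 14. *Klrg1*, a marker of terminal effector cells, did not exceed 1.61 CPM.

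Of 6 chemokine genes of CD8 T cells, 5 were above all controls at day 14 (26.0% of all tested genes, median 1.62). *Xcl1*, the ligand that attracts XCR1+ dendritic cells (ENSMUSG00000026573.7, GRCm38 chromosome 1, 164931644 to 164935527), was at 1.17 and 0.450 CPM in the day 0 controls, 2.68 in the day 18 control, 11.7 and 1.64 in the day 7 libraries and 67.8 in the day 14 library. Day 14 was the highest, and day 7 replicate 1 was above the controls while replicate 2 lay among them. The log2 fold change at day 14 was 5.59 (SE 1.18), with an adjusted p of 0.339 by edgeR and 6.95e-05 by DESeq2. *Ccl5* had its highest value in day 7 replicate 1, at 34.5, 10.2 and 6.62 CPM in the controls, 95.6 and 6.38 at day 7 and 43.8 at day 14. *Ccl3* and *Ccl4*, which macrophages make as well, were at 5.85 and 14.5 CPM at day 14 and at 3.36 and 8.33 in day 0 replicate 1.

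Among 18 regulators induced by the T cell receptor or linked to exhaustion, 13 were above all controls at day 14 (26.0% of all tested genes) and none was below them (24.4%, median 0.76). All 18 were higher in day 7 replicate 1 than in replicate 2, as were 7896 of all 16014 tested genes, and 12 were above all controls in replicate 1 (21.4% of all tested genes) against 2 in replicate 2 (32.7%). *Nr4a2*, an orphan nuclear receptor induced by receptor signals, was at 13.3 and 10.2 CPM in the day 0 controls, 7.83 in the day 18 control, 16.0 and 12.0 in the day 7 libraries and 47.8 in the day 14 library. At day 14 the log2 fold change was 2.19 (SE 0.33), with an adjusted p of 0.182 by edgeR with all 6 libraries, 0.000427 without the count filter and 0.00337 by edgeR within the XC series. The early response gene *Nr4a1* was not apart, at 135, 113 and 41.6 CPM in the controls, 94.2 and 58.8 at day 7 and 129 at day 14. *Irf4*, which scales with receptor signal strength, was at 2.63, 1.61 and 5.22 CPM in the controls, 10.3 and 3.40 at day 7 and 28.6 at day 14, and passed by DESeq2 (adjusted p = 0.0103). *Nr4a3*, a paralog of *Nr4a1*, was at 6.93, 11.8 and 8.66 CPM in the controls, 20.6 and 9.13 at day 7 and 25.5 at day 14. *Bhlhe40* was at 8.75, 8.57 and 1.503 CPM in the controls, 6.02 and 3.60 at day 7 and 27.9 at day 14. *Ikzf2* (Helios) was at 19.0, 21.0 and 7.80 CPM in the controls, 11.8 and 8.51 at day 7 and 30.9 at day 14. For these 3 genes, too, day 14 was the highest. *Myc* was highest in day 7 replicate 1, at 120.3, 129 and 132 CPM in the controls, 226 and 114 at day 7 and 204 at day 14. *Prdm1* (Blimp-1) was low and above every control in each leukemia library, at 1.67, 1.61 and 1.22 CPM in the controls, 3.16 and 2.33 at day 7 and 2.26 at day 14. *Tox2* was low and *Tox*, a factor needed for exhausted cells to persist, was at moderate levels in all 6. *Tox2* was at 0.249, 0.321 and 0.0358 CPM in the controls, 0.882 and 0.450 at day 7 and 2.75 at day 14. *Tox* was at 33.7, 59.9 and 87.4 CPM in the controls, 93.6 and 73.7 at day 7 and 103 at day 14, so that the day 18 control exceeded the day 0 controls by more than day 14 exceeded the day 18 control. *Egr2* and *Egr3*, which restrain T cell activation, were at 19.6 and 13.1 CPM at day 14, with day 7 replicate 1 at 15.2 and 16.6 and the day 18 control at 11.9 and 12.9. *Batf* and *Irf8* had their highest value in a day 0 control.

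Of 7 effector and memory transcription factors, 4 were above all controls at day 14 (26.0% of all tested genes) and 2 below (24.4%), the latter near the share over all genes. *Eomes*, a T-box factor of memory and exhausted CD8+ T cells (ENSMUSG00000032446.14, GRCm38 chromosome 9, 118478212 to 118486132), was at 6.40 and 7.09 CPM in the day 0 controls, 27.7 in the day 18 control, 81.5 and 17.4 in the day 7 libraries and 164 in the day 14 library. Its order ran from the day 0 controls through day 7 replicate 2, the day 18 control and day 7 replicate 1 to day 14. The log2 fold change at day 14 was 3.59 (SE 1.06), with an adjusted p of 0.642 by edgeR, and the spread among the controls was part of that error. The related *Tbx21* (T-bet) was at 6.99, 9.13 and 16.1 CPM in the controls, 43.9 and 12.8 at day 7 and 54.6 at day 14. *Bcl6* was at 7.55, 12.5 and 11.5 CPM in the controls, 17.9 and 12.2 at day 7 and 25.1 at day 14. *Id2* (246, 224 and 155 CPM in the controls, 164 and 122 at day 7 and 122 at day 14) and *Runx3* (174, 204 and 175 CPM in the controls, 171 and 151 at day 7 and 148 at day 14) were lower at day 14 than in every control, and day 7 replicate 2 was at or near the same level.

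The 16 activation and memory surface genes held 10 that were highest of all libraries at day 14 (15.6% of all tested genes, median 1.13), and 14 were above both day 7 libraries (28.1% of all tested genes). *Tnfrsf9*, the costimulatory receptor 4-1BB (ENSMUSG00000028965.13, GRCm38 chromosome 4, 150914562 to 150946102), was at 6.01 and 3.66 CPM in the day 0 controls, 16.2 in the day 18 control, 62.5 and 11.4 in the day 7 libraries and 142 in the day 14 library. As with *Eomes*, the day 18 control was above the day 0 controls, day 7 replicate 1 was above all controls and replicate 2 was not. *Itgb1*, the beta 1 integrin, was at 53.0 and 94.5 CPM in the day 0 controls, 82.9 in the day 18 control, 135 and 82.2 in the day 7 libraries and 409.9 in the day 14 library. Its log2 fold change at day 14 was 2.42 (SE 0.37), with an adjusted p of 0.182 by edgeR with all 6 libraries, 3.82e-05 without the count filter and 0.00741 by edgeR within the XC series. *Ly6c2*, a surface antigen of memory CD8+ T cells, was at 196 and 68.0 CPM in the day 0 controls, 194 in the day 18 control, 318 and 174 in the day 7 libraries and 842 in the day 14 library. *Cxcr3*, a chemokine receptor of effector cells, was at 24.9 and 9.13 CPM in the day 0 controls, 4.62 in the day 18 control, 35.6 and 6.55 in the day 7 libraries and 97.7 in the day 14 library. For both, day 14 was the highest and day 7 replicate 1 the second. *Il2ra* (CD25) was at 1.09, 0.814 and 2.07 CPM in the controls, 5.60 and 2.21 at day 7 and 13.4 at day 14, and *Il2rb* (CD122) at 185, 253 and 319 CPM in the controls, 447 and 259.8 at day 7 and 585 at day 14. *Cd44* was uneven in the controls, at 27.7, 13.6 and 5.76 CPM in the controls, 21.0 and 7.65 at day 7 and 47.0 at day 14. *Icos*, a costimulatory receptor, was at 27.1, 18.3 and 27.6 CPM in the controls, 26.3 and 22.1 at day 7 and 41.9 at day 14. The remaining genes were less orderly. *Cd69*, an early activation antigen, was at 578, 372 and 299.9 CPM in the controls, 369 and 434 at day 7 and 464 at day 14. *Cxcr6*, a receptor of tissue-resident cells, was at 57.9, 38.7 and 146 CPM in the controls, 121 and 142 at day 7 and 124 at day 14, with the day 0 controls the lowest. *Tnfrsf18* (GITR), at 101, 62.6 and 74.3 CPM in the controls, 71.2 and 59.9 at day 7 and 61.2 at day 14, was below all controls at day 14.

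Genes of naive and stem-like cells lay the other way in part. Of 17, 9 were below all controls at day 14 (24.4% of all tested genes) and 3 above them (26.0%). The median was -0.69, and no member passed by edgeR with all 6 libraries under the count filter. *Igfbp4*, an insulin-like growth factor binding protein found in naive T cells (ENSMUSG00000017493.12, GRCm38 chromosome 11, 99041244 to 99054392), was at 324 and 224 CPM in the day 0 controls, 295 in the day 18 control, 248 and 178 in the day 7 libraries and 71.3 in the day 14 library. Day 14 was the lowest, and day 7 replicate 2 was also below all controls. Its log2 fold change at day 14 was -1.98 (SE 0.37), with an adjusted p of 0.227 by edgeR with all 6 libraries, 0.0282 without the count filter, 0.0256 by edgeR within the XC series and 3.87e-05 by DESeq2. *Il7r*, the interleukin-7 receptor (ENSMUSG00000003882.5, GRCm38 chromosome 15, 9505788 to 9530176), was at 341 and 378 CPM in the day 0 controls, 506 in the day 18 control, 344 and 405 in the day 7 libraries and 178 in the day 14 library. The day 7 libraries lay among the controls, and day 14 was the lowest, with a log2 fold change of -1.20 (SE 0.34), which passed by DESeq2 (adjusted p = 0.0136) and not by edgeR (adjusted p = 0.470). *Ccr7*, the lymph node homing receptor, was at 1379 and 1520.0 CPM in the day 0 controls, 1088 in the day 18 control, 818 and 926 in the day 7 libraries and 676 in the day 14 library, and each leukemia library was below each control (6.09% of all tested genes). *S1pr1*, which lets T cells leave lymphoid organs, was at 537, 1022 and 666 CPM in the controls, 612 and 550.2 at day 7 and 349 at day 14. *Klf2*, a factor that drives *S1pr1*, was at 1338, 1566 and 883 CPM in the controls, 1128 and 853 at day 7 and 699 at day 14. *Il6ra* was at 139.6, 285 and 220.0 CPM in the controls, 186 and 165 at day 7 and 82.7 at day 14, and passed within the XC series by edgeR (adjusted p = 0.0317). In these 3 genes day 14 was the lowest. *Satb1*, a chromatin organizer, was with *Ccr7* the other member whose leukemia libraries were all below the controls, at 768, 959.8 and 786 CPM in the controls, 678 and 618 at day 7 and 516 at day 14.

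The transcription factor most used to mark stem-like cells was not among those below the controls. *Tcf7*, which encodes TCF1, was at 1108 and 1980.5 CPM in the day 0 controls, 1566 in the day 18 control, 1733 and 1370.0 in the day 7 libraries and 1667 in the day 14 library. Day 14 lay within the range of the controls, and the sign of its log2 fold change turned with the controls used, from 0.10 (SE 0.38) with all 3 to -0.08 without day 0 replicate 1. *Foxo1* was at 400.3, 573 and 423 CPM in the controls, 427 and 366 at day 7 and 402 at day 14, and *Bach2* at 123, 179.7 and 133 CPM in the controls, 136 and 108 at day 7 and 129 at day 14, both within the range of the controls at day 14. *Lef1*, a relative of *Tcf7*, was below them, at 607, 844 and 896 CPM in the controls, 746 and 640.3 at day 7 and 484 at day 14. *Myb*, a factor of stem-like CD8+ T cells that is also high in dividing progenitors (ENSMUSG00000019982.15, GRCm38 chromosome 10, 21124935 to 21160984), stood out among the 17 in the other direction, at 16.3 and 15.8 CPM in the day 0 controls, 18.6 in the day 18 control, 61.8 and 15.2 in the day 7 libraries and 158 in the day 14 library. Its log2 fold change at day 14 was 3.22 (SE 0.62), with an adjusted p of 0.264 by edgeR and 0.00036 by DESeq2. *Id3* was at 81.9, 66.7 and 154 CPM in the controls, 131 and 108 at day 7 and 189 at day 14.

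Of 15 quiescence genes, 11 were below all controls at day 14 (24.4% of all tested genes, median -0.81), and 7 in each day 7 library (22.6% and 22.3% of all tested genes in replicates 1 and 2). The list summed to 6815 and 5378 CPM in the day 0 controls, 3468 in the day 18 control, 3486 and 3376 in the day 7 libraries and 2663 in the day 14 library. The day 18 control lay with the day 7 libraries, so much of the distance was between the day 0 controls and the rest. Macrophage, dendritic cell and erythroid markers were highest in the same 2 controls, and their part in this was not tested. *Cdkn2d*, *Btg2*, *Ccng2*, *Pik3ip1* and *Tsc22d3* were below every control in each leukemia library (6.09% of all tested genes). *Tsc22d3* (GILZ), which glucocorticoids induce, was at 1819.6, 1434 and 718 CPM in the controls, 663 and 696 at day 7 and 421 at day 14. *Cdkn1b* (p27), an inhibitor of cyclin-dependent kinases, was at 78.3, 69.2 and 47.1 CPM in the controls, 48.0 and 44.3 at day 7 and 31.9 at day 14, and *Btg1*, an antiproliferative gene of resting lymphocytes, was at 1436, 1292 and 996 CPM in the controls, 1007 and 943 at day 7 and 707 at day 14. *Klf6* followed the day 0 controls, at 1777, 1093 and 446 CPM in the controls, 561 and 587 at day 7 and 501 at day 14. *Cdkn2c* (p18) was the 1 member above all controls at day 14 (26.0% of all tested genes), at 5.23, 5.21 and 2.75 CPM in the controls, 4.65 and 3.23 at day 7 and 8.54 at day 14.

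**Figure D4:**
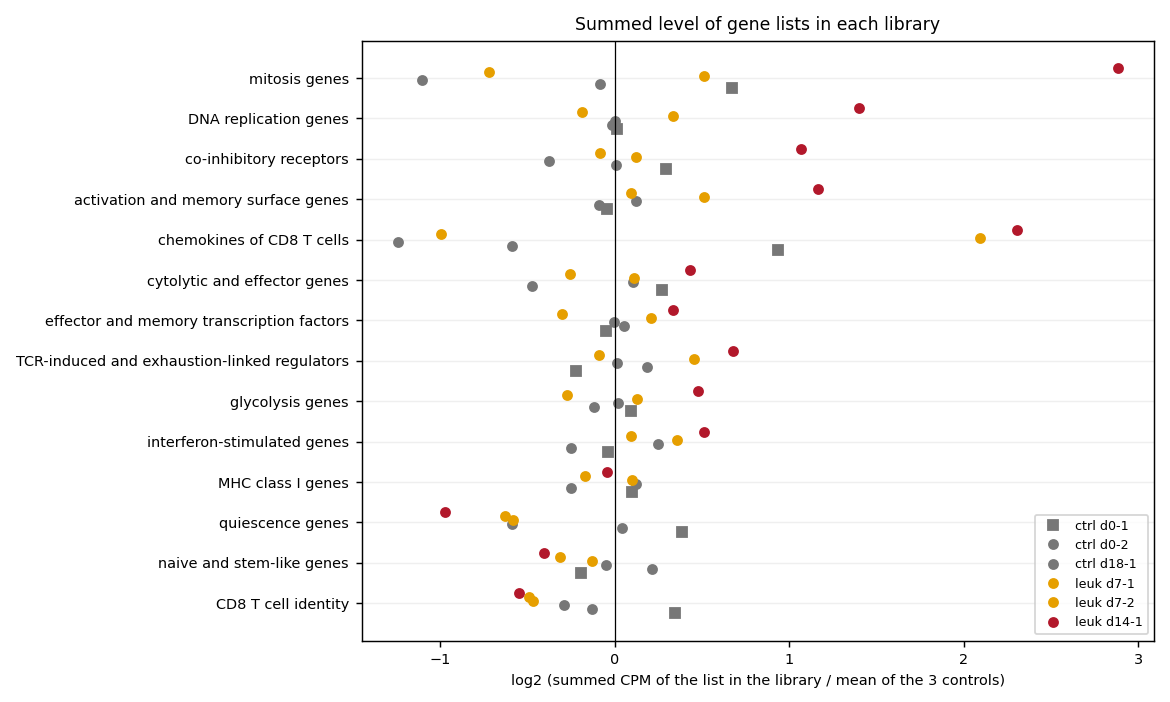
Summed CPM of 14 gene lists in each library as the log2 ratio to the mean of the 3 controls (1 point per library; grey: control; orange: leukemia day 7; red: leukemia day 14; square: TG series; circle: XC series). Day 14 lies farthest right for mitosis genes, at 2.89, day 7 replicate 1 reaches 2.10 for chemokines, and the control points of the mitosis list alone run from -1.10 to 0.67.

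Other programs differed less. Of 28 interferon-stimulated genes, 14 were above all controls at day 14 (26.0% of all tested genes) and 1 below (24.4%, median 0.40, summed level 2352 and 2025 CPM in the day 0 controls, 2864 in the day 18 control, 3085 and 2569 in the day 7 libraries and 3443 in the day 14 library). *Ifi27l2a* was at 342, 186 and 127 CPM in the controls, 175 and 228 at day 7 and 489 at day 14, and was the 1 member called within the XC series by edgeR (adjusted p = 0.0233). *Oas3* was at 27.3, 65.2 and 54.8 CPM in the controls, 81.6 and 63.7 at day 7 and 127 at day 14. In both, day 14 was the highest. *Igtp*, which interferon gamma induces, was high in the day 18 control as well, at 161, 118 and 231 CPM in the controls, 236 and 154 at day 7 and 168 at day 14. The 15 MHC class I and peptide loading genes had a median of 0.05, with 3 above and 1 below all controls, both shares under those of all genes. *B2m* was at 2931, 1803 and 2522 CPM in the controls, 2304 and 2104 at day 7 and 2907 at day 14.

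All 16 glycolysis genes had a positive log2 fold change at day 14 (median 0.40) and 11 were above all controls (26.0% of all tested genes), whereas 10 were below all controls in day 7 replicate 2 (22.3%). *Hk2*, the inducible hexokinase, was at 2.68, 1.48 and 1.61 CPM in the controls, 3.59 and 2.62 at day 7 and 9.55 at day 14, and passed by DESeq2 (adjusted p = 0.0274). *Gapdh* was at 463, 354 and 372 CPM in the controls, 430.1 and 268 at day 7 and 726 at day 14, and *Tpi1* at 95.0, 68.6 and 64.6 CPM in the controls, 87.6 and 57.2 at day 7 and 158 at day 14. The 20 cholesterol synthesis genes had a median of 0.16, with 10 above all controls (26.0% of all tested genes) and 1 below (24.4%). *Idi1* was at 22.3, 29.6 and 24.7 CPM in the controls, 33.9 and 28.3 at day 7 and 46.1 at day 14. Of 15 dissociation and stress genes 1 was above and 4 were below all controls at day 14 (26.0% and 24.4% of all tested genes, median -0.35). *Hspa1a*, a heat shock gene, did not follow the arms, at 304, 68.3 and 474 CPM in the controls, 512 and 115 at day 7 and 136 at day 14. The 13 genes of the mitochondrial genome summed to 17220 CPM in day 0 replicate 1 and to 6334 to 9703 CPM in the other 5 libraries, and none was outside the controls at day 14. No member of these lists passed by edgeR with all 6 libraries, with or without the count filter.

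**Figure D5:**
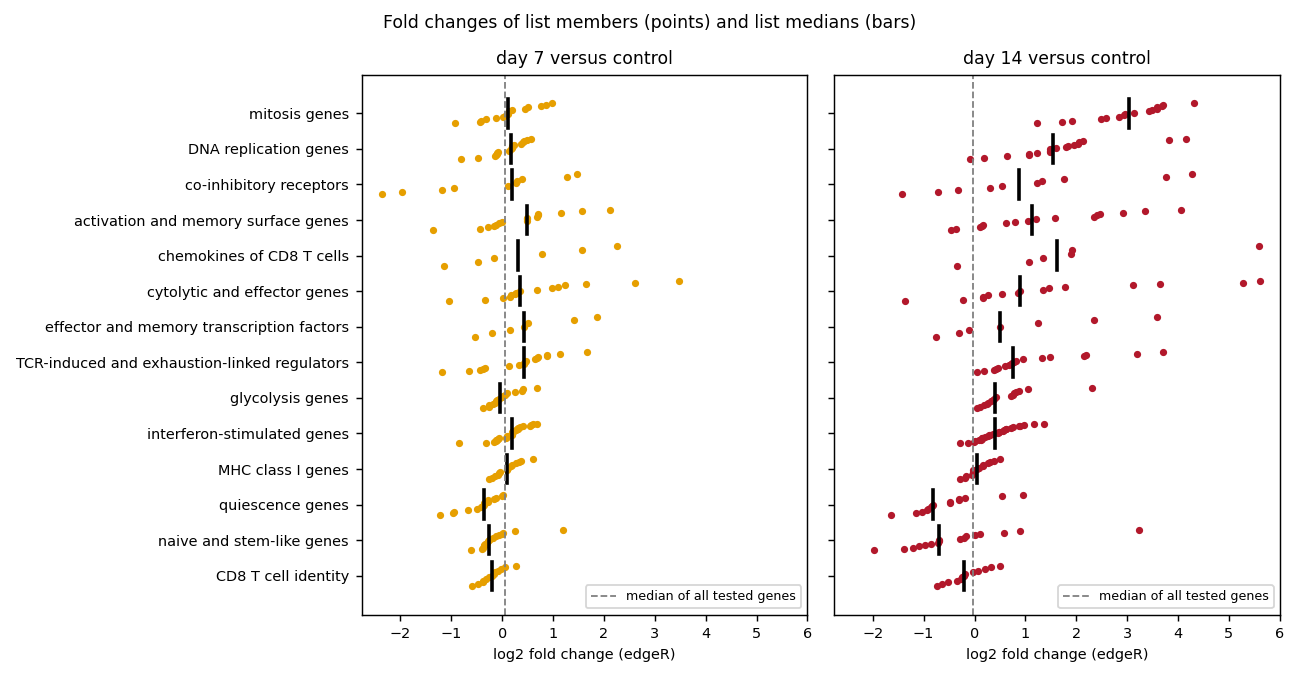
Log2 fold changes (edgeR) of the members of 14 lists for day 7 versus control (orange, 2 against 3 libraries) and day 14 versus control (red, 1 against 3), with 1 point per gene, a black bar at the list median and a dashed line at the median of all tested genes. The medians of mitosis and DNA replication genes are at 3.05 and 1.54 at day 14 and at 0.11 and 0.18 at day 7.

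Day 7 was a pair of unlike libraries. Replicate 1 was above all controls for 10 of 16 mitosis genes, 12 of 18 DNA replication genes and 10 of 15 cytolytic and effector genes (21.4% of all tested genes). Replicate 2 was above all controls for 0, 2 and 2 of them (32.7% of all tested genes) and below all controls for 4, 8 and 4 (22.3%). In 10 mitosis genes and 11 DNA replication genes the level of replicate 1 lay between all controls and day 14, as it did for 1372 of all 16014 tested genes. The values above show this step for *Gzmb*, *Xcl1*, *Tnfrsf9* and *Eomes*. Of the 10 co-inhibitory receptors, 4 were above all controls in each day 7 library, which in replicate 2 is near the share of all tested genes, and 2 were below all controls in replicate 1. The median log2 fold change, day 7 versus control, was 0.11 for mitosis genes, 0.36 for cytolytic and effector genes and 0.49 for activation and memory surface genes, beside 0.06 for all tested genes, and these medians join the 2 unlike libraries. By their labels the 2 share day, organ and title series. As given above, replicate 2 was the shallowest library and was nearly without Y-linked RNA, unlike replicate 1. Its olfactory and vomeronasal receptor genes summed to 7062 CPM, against 1433 in replicate 1. The part of these differences in the contrast was not tested.

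Genes that separated both day 7 libraries from the controls were 1461 higher (9.12% of those tested) and 1488 lower (9.29%). None passed by edgeR under the count filter, so the genes named are those with the smallest unadjusted p among the more abundant ones. Higher were *Xdh*, xanthine dehydrogenase of purine breakdown, *Gbp5*, an interferon-induced GTPase, *Vmn1r88*, *Adora2a*, an adenosine receptor, and *Gng2*, a G protein subunit. *Vmn1r88* is a vomeronasal receptor gene and owed its place to replicate 2, at 11.7, 11.1 and 13.8 CPM in the controls, 14.5 and 57.0 at day 7 and 15.2 at day 14. Lower were *Plekho1*, *Cnbd2*, *Ggt1*, *Rab4a* and *Diaph1*, a formin of the actin cytoskeleton. *Plekho1* was at 31.6, 40.9 and 26.1 CPM in the controls, 14.8 and 18.0 at day 7 and 10.2 at day 14, and *Cnbd2* at 27.1, 21.6 and 23.5 CPM in the controls, 11.8 and 15.9 at day 7 and 36.6 at day 14.

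Across all 3 leukemia libraries, 895 genes (5.59%) were above and 975 (6.09%) below every control. *Xdh* (ENSMUSG00000024066.9, GRCm38 chromosome 17, 73883895 to 73950196) had the smallest unadjusted p among the more abundant genes without overlap, at 48.0 and 67.8 CPM in the day 0 controls, 77.8 in the day 18 control, 121 and 145 in the day 7 libraries and 187 in the day 14 library. Each leukemia library exceeded each control, and the log2 fold change of all leukemia versus all control libraries was 1.23 (SE 0.24), with an adjusted p of 0.652 by edgeR. It passed by DESeq2 in the same comparison. *Adora2a* was at 9.21 and 16.0 CPM in the day 0 controls, 15.7 in the day 18 control, 39.7 and 18.3 in the day 7 libraries and 48.5 in the day 14 library, and *Nt5e* (CD73), the ectoenzyme that makes adenosine, was at 12.0, 17.8 and 22.9 CPM in the controls, 36.1 and 26.0 at day 7 and 33.2 at day 14. For both, the lowest leukemia value was close to the highest control. *Gpr174*, a receptor for lysophosphatidylserine, was at 16.5, 15.7 and 33.6 CPM in the controls, 44.2 and 36.9 at day 7 and 62.8 at day 14, with the day 18 control nearer to the leukemia libraries than to the day 0 controls. *Gng2* was at 23.2, 18.2 and 23.4 CPM in the controls, 34.3 and 30.0 at day 7 and 53.8 at day 14. In the other direction *Ggt1*, at 95.3, 76.6 and 69.6 CPM in the controls, 51.2 and 48.0 at day 7 and 43.3 at day 14, and *Diaph1*, at 122, 110.4 and 77.1 CPM in the controls, 62.2 and 55.2 at day 7 and 60.0 at day 14, were below every control, as were *Ubn2*, *Klf7* and *Plekho1*. Of the 13 genes of CD8 T cell identity, 5 (*Cd8a*, *Cd8b1*, *Cd247*, *Trbc1* and *Trbc2*) were below every control in each leukemia library. *Cd8b1* was at 2112, 2023 and 1864 CPM in the controls, 1419.8 and 1462 at day 7 and 1276 at day 14. For *Diaph1* the day 18 control was again nearer to the leukemia libraries than to the day 0 controls.

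Among the more abundant genes without overlap at day 14, the higher ones with the smallest unadjusted p were *Dtl*, *Uhrf1*, *Lig1*, *Mcm5* and *Rrm1*, of which *Mcm5* and *Rrm1*, described above, are in the DNA replication list. *Uhrf1*, which guides maintenance of DNA methylation at replication forks, was at 12.4 and 13.1 CPM in the day 0 controls, 14.8 in the day 18 control, 36.3 and 13.5 in the day 7 libraries and 143 in the day 14 library, with a log2 fold change of 3.41 (SE 0.44) and an adjusted p of 0.173 by edgeR (7.67e-05 without the count filter). *Dtl*, an adaptor of the ligase that removes CDT1 in S phase, was at 14.8, 9.13 and 15.6 CPM in the controls, 23.5 and 18.7 at day 7 and 71.4 at day 14. *Lig1*, which joins Okazaki fragments, was at 16.9, 16.8 and 15.2 CPM in the controls, 20.6 and 10.4 at day 7 and 84.5 at day 14. All 5 passed without the count filter. Their lower counterparts were *Igfbp4*, *Cyp2s1*, *Ifngr2*, *Ccr9* and *Thra*, of which *Igfbp4* and *Cyp2s1* passed without the filter. *Ifngr2*, a chain of the interferon gamma receptor, was at 85.0 and 95.4 CPM in the day 0 controls, 69.6 in the day 18 control, 48.8 and 65.4 in the day 7 libraries and 27.2 in the day 14 library. *Ccr9*, a gut homing receptor of naive CD8+ T cells, was at 206 and 246 CPM in the day 0 controls, 194 in the day 18 control, 165 and 204 in the day 7 libraries and 76.7 in the day 14 library. *Cyp2s1* was at 22.7, 17.2 and 28.3 CPM in the controls, 24.5 and 24.3 at day 7 and 6.28 at day 14, and *Thra*, a thyroid hormone receptor, was at 20.8, 25.1 and 20.9 CPM in the controls, 21.2 and 16.8 at day 7 and 7.54 at day 14. For *Ifngr2* both day 7 libraries were also below all controls, and for the other 3 the day 7 libraries overlapped them or lay just outside.

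Set against day 7 in place of the controls, day 14 was above both day 7 libraries for 28.1% of all tested genes. It was above both for 16 of 16 mitosis genes, 17 of 18 DNA replication genes and 8 of 10 co-inhibitory receptors. *Lig1*, *Hist1h2ap*, *Uhrf1*, *Mcm5* and *Dtl* were the higher genes with the smallest p, and *Cyp2s1*, *Igfbp4*, *Thra*, *Ccr9* and *Kcna2* the lower ones (35.1% of all tested genes were lower than both). The log2 fold change of *Lig1*, day 14 versus day 7, was 2.44 (SE 0.38), with an adjusted p of 0.919 by edgeR and 0.000744 without the count filter. *Kcna2*, a voltage-gated potassium channel, was at 32.5, 26.7 and 26.2 CPM in the controls, 24.4 and 23.9 at day 7 and 11.5 at day 14. This comparison shares its day 14 library with the one before.

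Several genes outside the lists, chosen after their values were seen, had the smallest adjusted p at day 14 within the XC series. *Pclaf*, the PCNA-associated factor, was at 10.1 and 5.18 CPM in the day 0 controls, 4.51 in the day 18 control, 10.5 and 6.71 in the day 7 libraries and 74.9 in the day 14 library, with a log2 fold change there of 3.96 (SE 0.33, adjusted p = 0.000134) by edgeR. *Nrp1*, neuropilin 1 (ENSMUSG00000025810.9, GRCm38 chromosome 8, 128358604 to 128503363), was at 3.03 and 3.58 CPM in the day 0 controls, 3.86 in the day 18 control, 5.44 and 7.45 in the day 7 libraries and 43.8 in the day 14 library. The 3 controls were close together, the day 7 libraries were just above them and day 14 was the highest, with a log2 fold change of 3.57 (SE 0.35, adjusted p = 0.000476) by edgeR within the series. *Chst2*, a sulfotransferase, and *Kntc1*, a kinetochore protein, were at 24.8 and 23.1 CPM at day 14, at 5.41 and 4.78 in day 7 replicate 1 and at 3.64 and 4.01 in replicate 2, against 0.856 to 1.68 in the controls. For both genes the 2 day 7 libraries were alike. *Hopx*, a homeodomain protein of effector and memory cells, was at 54.8, 30.7 and 30.5 CPM in the controls, 50.4 and 40.9 at day 7 and 107 at day 14. *Zbtb32*, a transcriptional repressor of activated lymphocytes, passed by DESeq2 (adjusted p = 5.78e-10) and was at 0.545, 0.300 and 0.608 CPM in the controls, 10.0 and 1.51 at day 7 and 54.0 at day 14. *Klrc1* (NKG2A) was at 1.53, 0.750 and 0.394 CPM in the controls, 14.9 and 1.43 at day 7 and 47.3 at day 14, and *Rgs16* at 0.187, 0.257 and 0.465 CPM in the controls, 4.81 and 0.941 at day 7 and 15.6 at day 14. In *Zbtb32*, *Klrc1* and *Rgs16* day 7 replicate 1 was again between the controls and day 14. Among the genes DESeq2 called lower at day 14 with all controls were *Hbb-bs*, *Hba-a1*, *Hba-a2* and *Camp*, markers of red cells and neutrophils, which were highest in the day 0 controls. Among those it called higher was *Cd22*, from the B cell list, at 3.22, 2.49 and 1.90 CPM in the controls, 6.27 and 5.69 at day 7 and 12.1 at day 14.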

How the data were processed

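Sorted TCRTg101 cells gave low-input RNA-seq libraries, which the authors sequenced in 2 batches and quantified with kallisto on mm10/GRCm38 (version and annotation not given in the sources used here). The deposited values are estimated counts (expected counts, not whole numbers) and TPM per transcript, and the deposited TPM were not used. Estimated counts were summed per gene with GENCODE vM21 (98.25% of 118783 transcripts, 99.0% to 99.11% of counts) and over the 2 runs of a library, joined by title, and rounded. Runs of a library differed far less (mean chi-square per gene 1.87 to 15.9) than libraries of a group (47.7 and 113). Kallisto divides reads among similar transcripts, so near-identical genes are uncertain. Totals per library ranged from 22691066 to 65021068. At this depth the number of libraries limits precision more than counting does.

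A gene needed 10 counts or more in 3 or more libraries, and was tested with edgeR 4.0.16 (robust quasi-likelihood, TMM, two-sided) in R 4.3.3, with Benjamini-Hochberg adjustment over all 16014 genes and a threshold of 0.05. One fit had 2 groups (leukemia, control) and another 3 (control, day 7, day 14). The SE is the log2 fold change divided by the root of F. The study put the batch in its design. Here the series was left out, because 1 library alone is of the TG series and a series term removes it from the contrast, and fits with it are alternatives, as are DESeq2 1.42.0, other filters, scaling, controls and runs, and each library left out. Tests were tried on simulated data. Principal components used log2 CPM with a prior count of 2, limma 3.58.1 removed the series effect in 1 alternative, and Python 3.11.15 with pandas 2.3.3 and matplotlib 3.10.9 made tables and plots.

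The gene lists (25 lists, 331 of 332 genes measured) and comparisons were chosen with earlier results of these data known. Genes are named as list members, as the 10 largest changes per direction that passed, or, where fewer passed, as the 5 of smallest unadjusted p without overlap and with a mean log2 CPM of at least 4. Predicted genes, receptor segments and pseudogenes were excluded from the latter. Promoter letters are from RefSeq (GRCm38.p6). Some list members are counted with their list and are not reported here by name.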

Additional observations from a re-analysis of the deposited data

Results flagged for a closer look

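*Cnbd2* was flagged because day 7 and day 14 lay on opposite sides of the controls. It was at 27.1 and 21.6 CPM in the day 0 controls, 23.5 in the day 18 control, 11.8 and 15.9 in the day 7 libraries and 36.6 in the day 14 library, so both day 7 libraries were below and day 14 was above every control. The log2 difference of day 14 from day 7 was 1.40 (SE 0.29), with an adjusted p of 0.919 by edgeR. Over all 16014 tested genes, 241 had this pattern.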

How the results depend on the processing

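With all 6 libraries, the filter of 10 counts in 3 libraries and no series term, the edgeR count was 0 in each comparison, and RLE scaling, a filter of 10 counts in all 6 libraries and the first run alone also gave 0. DESeq2 gave 39 genes (22 higher, 17 lower) for leukemia versus control, 11 for day 7 versus control, 264 for day 14 versus control and 72 for day 14 versus day 7, and, without day 0 replicate 1 (chosen after seeing the data), 23, 11, 477 and 200. With no filter beyond 6 counts in total, the counts for the last 3 comparisons were 6, 135 and 32. The series term gave 1 for day 14 versus control, and the fit of 14 libraries with that term gave 1 for day 14 versus control and 1 for day 14 versus day 7. In the fit of 14 libraries the day 14 versus control gene was *Gm14681*, a predicted gene that was lower (log2 fold change -11.4), and not *Pclaf*. Against the day 0 controls alone leukemia versus control gave 4. Against the day 18 control alone it gave 1, day 7 gave 32 and day 14 gave 256. The 256 set 1 library against 1, and the only replicates in that fit were the 2 unlike day 7 libraries. No conclusion is drawn from these counts. The day 18 control was also nearly without Y-linked RNA, unlike the day 14 library. Y-linked *Kdm5d* was among the 256 (log2 fold change 2.30), and the part of this difference in the count was not tested. With 1 library left out, leukemia versus control ranged from 0 to 4 genes (4 without the day 18 control), day 14 versus control from 0 to 117 (117 without day 0 replicate 1, 19 without day 0 replicate 2, 3 without day 7 replicate 2) and day 14 versus day 7 from 0 to 21 (21 without day 0 replicate 1). The mean distance between the arms was 94.0 with at least 10 counts in all 6 libraries, against 141.7, because fewer genes enter it.

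The log2 fold change of Tcf7 at day 14, 0.10 with all libraries and -0.079 to 0.31 with 1 left out, turned to -0.089, -0.012, -0.079 and -0.050 under the series term, 14 libraries, no day 0 replicate 1 and DESeq2 without it. None of the other genes recomputed under these settings changed sign. For results past or under the threshold, the cause of a change was not tested. No paired analysis was possible because the labels do not link any leukemia library to a control library. Day 14 rests on 1 library, so that no value there has a replicate.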
